A study of Danio rerio with 9 samples.

Results

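The comparison is between independent microinjection experiments of the same design: the 3 arrays titled replicate 3 were set against the 3 titled replicate 1, which makes 6 of the 9 arrays. All embryos were zebrafish (Danio rerio) of the Tuebingen strain, labelled 12 h after fertilization, and each array measured total RNA from a pool of 60 whole embryos. In every experiment 1 pool had received GFP mRNA (the control), 1 Hif-1α mRNA and 1 Hif-3α mRNA, which encode alpha subunits of the hypoxia-inducible transcription factors. All pools were therefore injected, no uninjected pool is among them, and an injected mRNA acts in the whole embryo rather than in a chosen cell type. The question here was which genes differed between experiments 3 and 1 in all 3 injected groups, and whether they were genes of somites, muscle, blood and other tissues that arise at this age.

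At this age the zebrafish embryo is forming somites, the blocks of mesoderm along the trunk that give rise to muscle, while the tail bud still adds new mesoderm behind them. The segmentation clock, a set of oscillating Hes/her repressors, times the borders between somites. Muscle precursors then pass from the early factors myf5 and myod1 to myog and to the proteins of the contractile apparatus, and blood and vessel precursors arise in the lateral mesoderm beside the somites. Genes of the organizer and of the gastrula, active earlier, are being switched off over the same period.

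A level is the log2 of an array's processed signal minus the log2 of the 75th percentile of that array, and a difference is on that log2 scale. On the arrays of experiment 1 between 29925 and 30600 of 43603 probes were well above background, against 31969 to 32621 on those of experiment 3. The Hif-1α arrays of experiments 1 and 3 shared a slide and a scan day. For the control and Hif-3α pairs, the experiment 1 array was scanned on another day than the experiment 3 array. The probes of myf5, krt4 (a keratin of the outer epithelium) and tbxta (the Brachyury factor of notochord and tail bud) were well above background on all 3 arrays of each experiment. In bulk RNA, fewer cells of a type and less RNA per cell cannot be told apart, and no count of somites accompanies the arrays, so a difference in stage between the experiments was not tested.

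Experiment 3 differed from experiment 1 at 2227 of 20137 genes and transcripts, 11.1% of those tested (limma with the injected mRNA as a block, Benjamini-Hochberg adjusted p under 0.05). Each side of this comparison is 1 injection experiment. The p-values and SEs here and below therefore measure scatter among arrays, and not variation between repeated experiments. The fit used all arrays, so those of experiment 2 also enter each SE, and the n of 3 pairs counts the pairs compared. Of these, 1436 (7.13%) were higher in experiment 3 and 791 (3.93%) were lower. The difference had the same sign in the control, Hif-1α and Hif-3α pairs for 1426 of the higher genes (7.08%) and 789 of the lower ones (3.92%), and the other 12 lacked a value in 1 pair. A difference of at least 4-fold was seen for 142 of the higher and 27 of the lower genes with the same sign throughout. Experiment 2 against experiment 1 gave 281 calls (1.4%), and experiment 3 against experiment 2 gave 376 (1.87%). The level of experiment 2 lay between the other 2 experiments for 1282 of the 1426 higher and 606 of the 789 lower genes. That is a description only, since the 3 comparisons share arrays and the genes were chosen for differing between experiments 3 and 1. Such a choice by itself favours a place in between, and the share over all genes is not given here.

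The number of calls depended on the arrays and on how the scans were modelled. With scan day as a further block, which leaves 1 residual degree of freedom and takes the difference from the Hif-1α pair, 36 genes passed, none of them in any of the 25 gene lists used below. When single arrays of experiment 3 were left out, the calls numbered 329 for the control array, 1005 for the Hif-1α array and 327 for the Hif-3α array. When those of experiment 1 were left out, they numbered 1362, 861 and 520 in that order.

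The muscle contractile list had the highest median difference. Besides genes of the contractile apparatus it holds muscle enzymes, receptor subunits, calcium channels and chaperones. Its genes eno3 and pgam2 are also in the glycolysis list, and hsp90aa1.1 is also in the heat shock list. Of 59 tested, 38 (64.4%, against 7.13% of all genes) were higher in experiment 3 and none was lower, with a median difference of 1.32 against -0.02 over all genes. Of the 59, 3 were tested only because an experiment, and not an injected group, had them above background. All 3 are among the 38 that were higher. Over all lists and genes, 595 were tested only in that way and 170 of these were called, against 2227 of 20137. The median was 1.53 in the control pair, 1.09 in the Hif-1α pair and 1.34 in the Hif-3α pair. In the Hif-1α pair 46 of the 59 genes were higher in experiment 3, with 52 and 50 in the control and Hif-3α pairs. By the limma estimate, called or not, 53 of the 59 were above 0, against 9666 of all 20137 genes. The number of higher members fell to 16 and 20 when the Hif-3α or the control array of experiment 3 was left out, to 22 when the Hif-3α array of experiment 1 was, and to 0 with scan day as a further block.

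**Figure D1:**
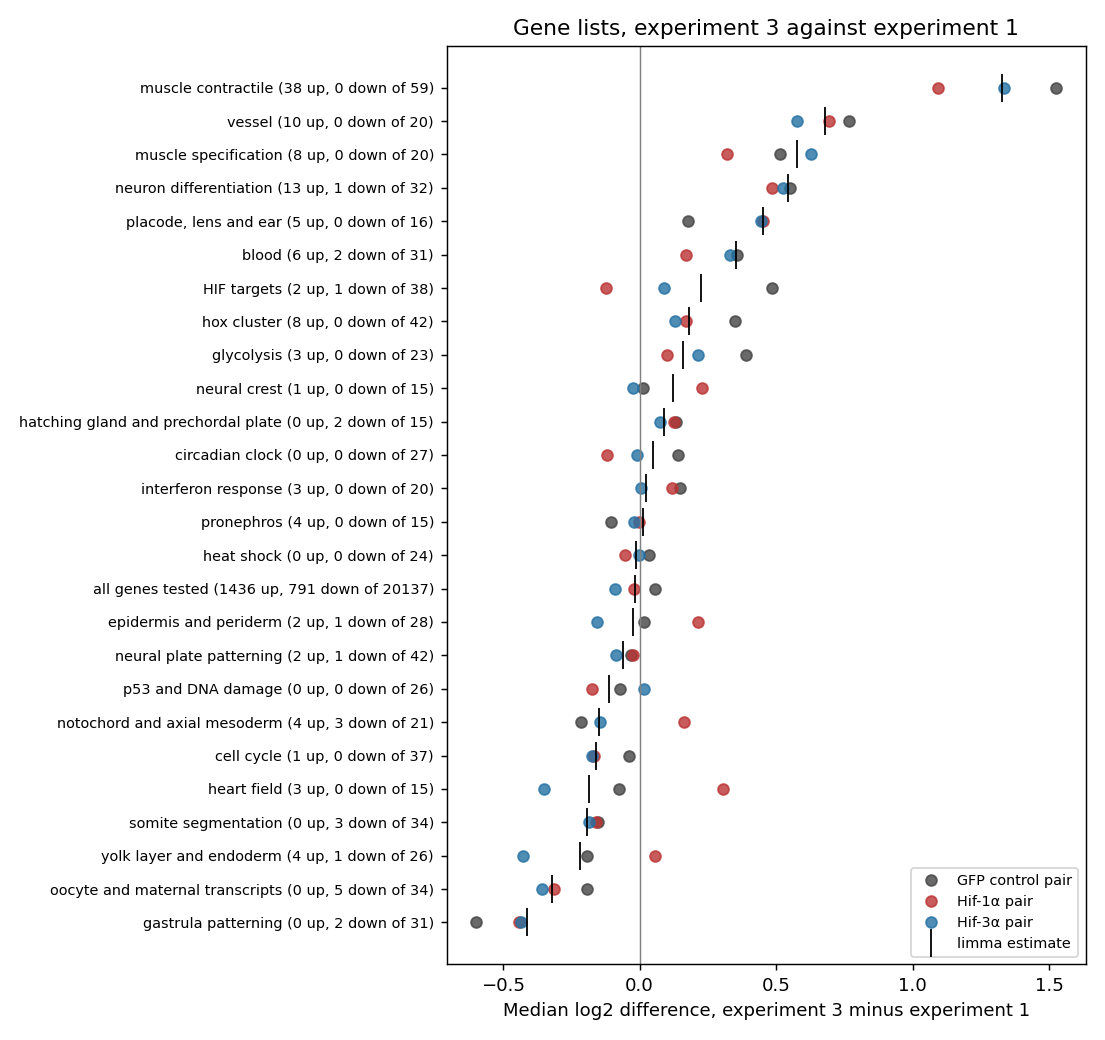
Median log2 difference between experiments 3 and 1 for each gene list (rows) and for all genes tested, with a dot for each of the 3 pairs of arrays and a bar for the median of the limma estimates; row labels give the genes called higher and lower. The contractile list lies farthest to the right, at 1.32, and the gastrula list farthest to the left, at -0.41.

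Slow muscle is the first fibre type to differentiate in the zebrafish somite, and smyhc1 encodes its myosin heavy chain. The level of smyhc1 on the control, Hif-1α and Hif-3α arrays was 2.07, 1.04 and 1.38 in experiment 1, 3.05, 2.2 and 2.77 in experiment 2, and 4.32, 2.81 and 3.49 in experiment 3. Every experiment 3 array was above every experiment 1 array, as for 12% of all genes, and the Hif-1α array was the lowest in each experiment. The difference was 2.05 ± 0.15 (SE from the fit to all arrays, n = 3 pairs, limma adjusted p = 0.00449), and it was called whichever single array was left out. Because smyhc1 has close copies, cross-hybridisation among the slow myosins cannot be told apart here.

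The actin gene actc1b, which encodes a sarcomeric actin, gave levels of 3.01, 2.01 and 2.73 in experiment 1, 3.74, 3.01 and 3.78 in experiment 2, and 5.20, 3.71 and 4.64 in experiment 3, in the same order of groups. The arrays of experiments 3 and 1 did not overlap. Its difference was 1.93 ± 0.16 (SE, n = 3 pairs, limma adjusted p = 0.00504), while its other 2 probes gave 0.51 and 1.84.

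For mylpfa, the fast myosin regulatory light chain, the levels were -4.68, -6.17 and -5.45 in experiment 1, -3.48, -4.08 and -3.16 in experiment 2, and -0.52, -3.08 and -1.46 in experiment 3. Its probe was well above background on 1 array of experiment 1 and on all 3 of experiment 3, and the groups did not overlap. The difference was 3.75 ± 0.35 (SE, n = 3 pairs, limma adjusted p = 0.00582). The calcium pump of the sarcoplasmic reticulum, atp2a1, was higher by 3.68 ± 0.45 and the troponin T gene tnnt2c by 3.62 ± 0.44, with 1.90 at a second probe of tnnt2c. Junctophilin jph2, which joins the sarcoplasmic reticulum to the cell membrane, was above background on no array of experiment 1 and was at least 6.24-fold higher in experiment 3. The troponin I gene tnni1b was at least 2.83-fold higher by the same measure. In that measure the dim side is set at the lowest signal that was well above background. Both jph2 and tnni1b were tested only through the filter by experiment, which kept them for arrays outside experiment 1.

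**Figure D2:**
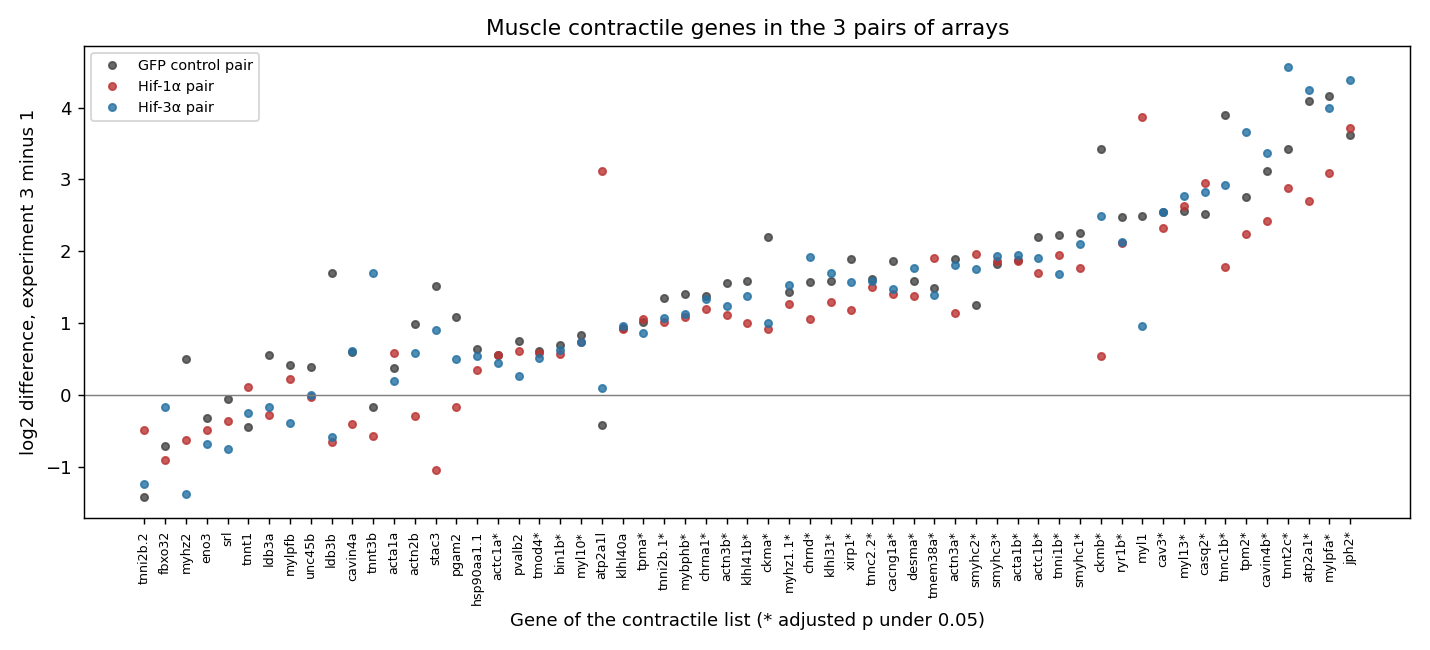
Log2 difference between experiments 3 and 1 for each of the 59 contractile genes (horizontal axis, ordered by the limma estimate), with a dot for each pair of arrays and an asterisk for adjusted p under 0.05. The 38 called genes lie above 0 in all 3 pairs. Among the genes not called, 4 lie below 0 in all 3 pairs, and others have pairs on both sides of 0.

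Of the 59 contractile genes, 21 did not pass. Among these 21, 4 were lower in all 3 pairs, as were 26.7% of all genes tested. The fast troponin T gene tnnt3b had levels of -2.07, -1.76 and -3.82 in experiment 1 and -2.23, -2.32 and -2.12 in experiment 3, and did not pass (difference 0.33 ± 0.42, adjusted p = 0.66 from limma). Muscle genes outside the 59 also lay among the genes that were lower in experiment 3. These were the troponin T gene tnnt2d (-1.66 ± 0.16) and csrp3, a LIM protein of striated muscle, which was tested only through the filter by experiment, was above background on no array of experiment 3 and was at least 3.19-fold lower there.

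The muscle specification list, mainly regulators that act before the contractile genes, had 8 of 20 higher (40%, against 7.13% of all genes). None was lower, and the median difference was 0.58. Of these 8, eya1 is also among the called genes of the placode, lens and ear list. The higher members numbered 2 when the control or the Hif-3α array of experiment 3 was left out, 3 for the Hif-1α or Hif-3α array of experiment 1, 4 for the Hif-1α array of experiment 3, and 0 with scan day as a further block. The factor myog, which drives terminal differentiation of muscle, had levels of -0.15, -1.64 and -0.79 in experiment 1, 0.30, -0.55 and 0.34 in experiment 2, and 2.22, 0.03 and 1.16 in experiment 3. Experiment 3 lay above experiment 1 without overlap, by 1.99 ± 0.25 (SE, n = 3 pairs, limma adjusted p = 0.00887). The cofactor vgll2b, a vestigial-like protein, was higher by 3.02 ± 0.33, with pair differences of 2.98, 3.04 and 3.05. For myod1, which commits cells to muscle, the difference was 0.87 ± 0.15 (limma adjusted p = 0.0197), and the 3 pairs gave 0.96, 0.85 and 0.82.

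The early factor myf5 was not called. Its levels were 3.64, 3.43 and 3.92 in experiment 1 and 3.52, 3.76 and 3.77 in experiment 3, so that the arrays overlapped, and the difference was 0.02 ± 0.15 (adjusted p = 0.949, limma). Splicing regulator rbfox1l (1.02 ± 0.16) and the factor mef2aa (0.73 ± 0.10) were higher, although the 2 other probes of mef2aa ranged from -0.31 to 0.77.

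**Figure D3:**
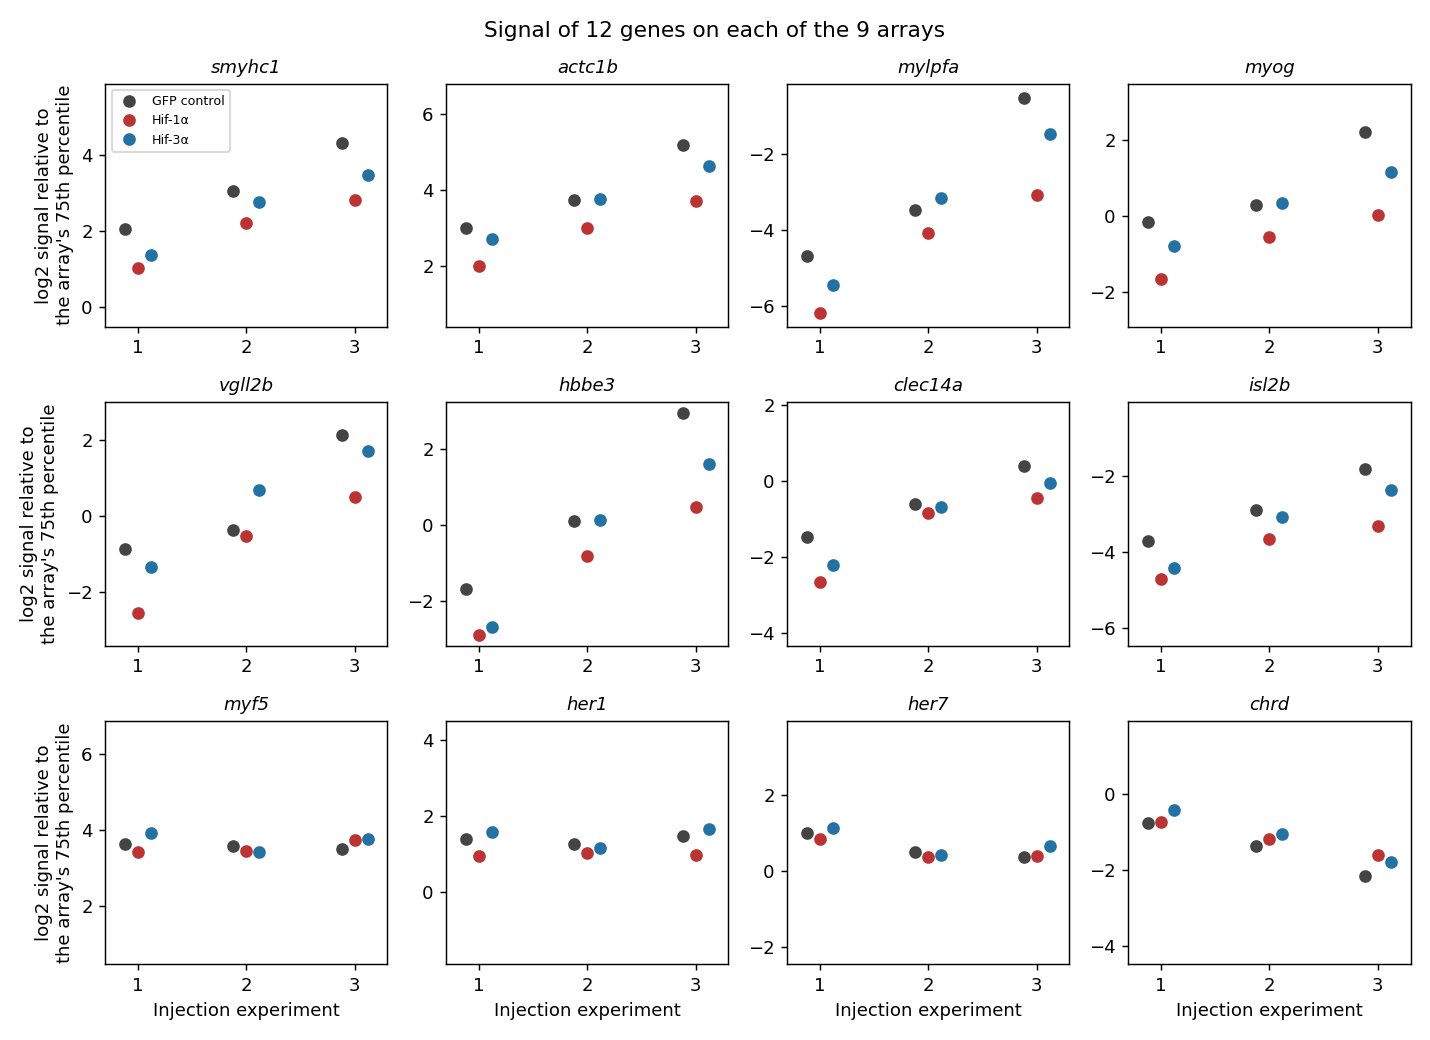
Level of 12 genes (log2 signal relative to the 75th percentile of the array) on each of the 9 arrays, by injection experiment and injected mRNA, on axes of equal span. The smyhc1, actc1b, mylpfa, myog, vgll2b, hbbe3, clec14a and isl2b points of experiment 3 lie above those of experiment 1, those of myf5 and her1 overlap, and those of her7 and chrd lie lower.

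Genes of the segmentation clock and the presomitic mesoderm, from which somites form, were mostly not called. Of 34 tested, none was higher and 3 were lower (8.82%, against 3.93% of all genes), with a median of -0.19. The clock repressor her7 had levels of 0.99, 0.83 and 1.13 in experiment 1 and 0.35, 0.39 and 0.64 in experiment 3, without overlap (9.3% of all genes lay lower in that way), a difference of -0.52 ± 0.11 (SE, n = 3 pairs, limma adjusted p = 0.0324). The other 2 were hes6 (-0.62 ± 0.12), a partner of the her repressors, and ripply2 (-0.69 ± 0.15), a corepressor at the forming somite border. Its fellow clock gene her1 gave 0.05 ± 0.13, with levels of 1.40, 0.96 and 1.59 in experiment 1 and 1.49, 0.97 and 1.65 in experiment 3, which overlap. The border gene mespba (-0.28 ± 0.09), the presomitic factor msgn1 (-0.22 ± 0.13) and tbxta (-0.31 ± 0.16) did not pass. The calls of her7, hes6 and ripply2 each held in at most 3 of the 9 fits that left out 1 array.

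In the blood list, 6 of 31 genes were higher (19.4%, against 7.13% of all genes) and 2 lower (6.45%, against 3.93%), with a median of 0.35. Of the 31, 3 were tested only through the filter by experiment, and 2 of these are among the 6 that were higher. The higher members numbered 2 when either Hif-3α array, of experiment 1 or of experiment 3, was left out, and 3 when the control array of experiment 3 was. The embryonic beta globin hbbe3 had levels of -1.68, -2.89 and -2.68 in experiment 1, 0.12, -0.81 and 0.12 in experiment 2, and 2.95, 0.49 and 1.60 in experiment 3. The experiments did not overlap, and the difference of 4.1 ± 0.32 (SE, n = 3 pairs, limma adjusted p = 0.00449) was the largest rise among called genes that had a proper symbol and the same sign in all pairs. A second embryonic beta globin, hbbe2, one of those tested only by experiment, was above background on no array of experiment 1 and at least 4-fold higher in experiment 3. Globins are a family of near copies, so cross-hybridisation between them was not separated.

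The regulators of blood formation were split. The erythroid factor gata1a was higher by 1.1 ± 0.25 (limma adjusted p = 0.0421), with pair differences of 0.59, 1.76 and 0.93, and it kept its call in 2 of the 9 fits that left out 1 array. The progenitor factor myb (1.52 ± 0.11) and the myeloid factor spi1b (1.82 ± 0.32) were higher. The 2 lower members of the list were lcp1 (-0.71 ± 0.13, limma adjusted p = 0.024) and aqp3a (-1.21 ± 0.29, limma adjusted p = 0.0453). Early regulators tal1 (0.26 ± 0.21) and lmo2 (0.23 ± 0.25), the heme synthesis enzyme alas2 (0.37 ± 0.34) and the alpha globin hbae3 (1.17 ± 0.30, limma adjusted p = 0.0558) did not pass.

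The vessel list had 10 of 20 genes higher (50%, against 7.13% of all genes), none lower and a median of 0.68, with pair medians of 0.77, 0.69 and 0.58. Of the 20, 2 were tested only through the filter by experiment, and 1 of these was among the 10. The endothelial membrane lectin clec14a had levels of -1.48, -2.66 and -2.21 in experiment 1, -0.63, -0.85 and -0.70 in experiment 2, and 0.38, -0.47 and -0.06 in experiment 3. No experiment 1 array reached an experiment 3 array, and the difference was 2.07 ± 0.18 (SE, n = 3 pairs, limma adjusted p = 0.00559). The endothelial adhesion genes esama (1.85 ± 0.16) and cdh5 (1.31 ± 0.14), well above background on 2 and 1 of the experiment 1 arrays, and the secreted factor egfl7 (0.95 ± 0.12) were also higher. The early endothelial factors etsrp (0.05 ± 0.16, with no value on the Hif-3α array of experiment 1) and fli1 (0.09 ± 0.14) did not pass. With scan day as a further block no vessel gene passed, 3 passed when the Hif-3α array of experiment 3 was left out, 4 when either the control array of experiment 3 or that of experiment 1 was, and 5 when the Hif-3α array of experiment 1 or either of its Hif-1α counterparts in experiments 1 and 3 was.

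Neuron differentiation genes showed 13 of 32 higher (40.6%, against 7.13% of all genes) and 1 lower (3.12%, against 3.93%). The lower gene was her4.1 (-0.44 ± 0.11, limma adjusted p = 0.0496). The list median was 0.55, with pair medians of 0.55, 0.48 and 0.53. Of the 32, 3 were tested only through the filter by experiment, and 2 of these were among the 13. The motor and sensory neuron factor isl2b had levels of -3.71, -4.72 and -4.43 in experiment 1, -2.91, -3.67 and -3.09 in experiment 2, and -1.82, -3.33 and -2.37 in experiment 3. These did not overlap between experiments 3 and 1, and the difference was 1.78 ± 0.18 (SE, n = 3 pairs, limma adjusted p = 0.00635). The microtubule regulator stmn2a, well above background on 2 of the experiment 1 arrays, was higher by 2.33 ± 0.29, and the RNA-binding neuronal marker elavl3 by 0.55 ± 0.11. Higher members numbered 0 with scan day as a further block, 3 when the Hif-3α array of experiment 3 was left out, 4 for its control array or the Hif-3α array of experiment 1, and 8 for the Hif-1α array of experiment 3.

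In the heart field list 3 of 15 were higher (20%, against 7.13% of all genes), namely the cardiac myosins myl7 (at least 4.89-fold) and myh7 (at least 3.52-fold) and the cardiac troponin T tnnt2a (1.70 ± 0.21), while the list median was -0.18. Both myosins were above background on no array of experiment 1 and were tested only through the filter by experiment. Without the control array of experiment 3, 1 heart field gene was higher. In the pronephros list, the embryonic kidney, 4 of 15 were higher (26.7%), led by the sodium pump subunit atp1a1a.4 at 2.82 ± 0.22, with cdh17 at 1.68 ± 0.21 and wt1b, above background on 1 array of experiment 1, at 2.43 ± 0.30. Of the 15, 2 were tested only through the filter by experiment, 1 of them among the 4, and 2 were higher without the control array of experiment 3. The placode, lens and ear list had 5 of 16 higher (31.2%), among them the ear and lateral line factors hmx2 (1.03 ± 0.11) and hmx3a (1.12 ± 0.14). The 5 became 1 without the control array of experiment 3, 2 without its Hif-1α or Hif-3α array or without the Hif-1α or Hif-3α array of experiment 1, and 3 without the control array of experiment 1.

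Of 42 Hox genes, which pattern the body axis from head to tail, 8 were higher (19%, against 7.13% of all genes), none was lower and the median was 0.18. They numbered 1 when the control or Hif-3α array of experiment 3 was left out, 2 for the Hif-3α array of experiment 1, 3 for the Hif-1α array of experiment 1 or 3, 4 for the control array of experiment 1 and 5 for the Hif-3α array of experiment 2. Of the called members with the smallest p, hoxa11a, hoxa11b and hoxc11a belonged to posterior group 11. Among them was also hoxa2b, with differences of 0.57 to 0.68 over the fits that left out 1 array, called in 3 of those 9. The level of hoxa11b was -0.02, -0.60 and -0.03 in experiment 1, 0.54, 0.32 and 0.59 in experiment 2, and 1.5, 0.63 and 1.24 in experiment 3. Its experiments 3 and 1 did not overlap, with a difference of 1.34 ± 0.14, and those of hoxc11a and hoxa11a were 1.36 ± 0.18 and 1.45 ± 0.23.

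The notochord list split, with 4 of 21 higher (19%, against 7.13% of all genes) and 3 lower (14.3%, against 3.93%). When the control or Hif-3α array of experiment 3 was left out, 1 was higher and 1 lower. The higher numbered 2 without the Hif-3α array of experiment 1, and the lower numbered 1 without that array or without the Hif-1α array of experiment 1 or 3. The sheath and matrix genes cmn (2.01 ± 0.24), col9a2 (1.59 ± 0.19) and col2a1a (1.19 ± 0.17) were higher. The early axial genes chrd, a secreted Bmp antagonist of the organizer, and noto, which specifies notochord, were lower. The chrd levels were -0.75, -0.73 and -0.40 in experiment 1, -1.36, -1.19 and -1.05 in experiment 2, and -2.15, -1.60 and -1.79 in experiment 3. The arrays of experiment 3 were below all those of experiment 1, by -1.22 ± 0.13 (SE, n = 3 pairs, limma adjusted p = 0.00711), and noto gave -0.88 ± 0.16.

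Both genes also belong to the gastrula list, where they were the only 2 of 31 that passed as lower (6.45%, against 3.93%), with none higher. Leaving out the control array of experiment 1 or 2 gave 4 and 9 lower genes, and leaving out the control array of experiment 3, or a Hif-1α or Hif-3α array of experiment 1 or 3, gave 1. The list median was -0.41, and 20 of the 31 were lower in all 3 pairs (26.7% of all genes were), although most did not pass, as for the organizer gene gsc (-1.71 ± 0.56, limma adjusted p = 0.105). Among 34 oocyte and maternal transcripts 5 were lower (14.7%, against 3.93% of all genes), none was higher and the median was -0.32. None was lower when the control array of experiment 3 or the Hif-1α or Hif-3α array of experiment 1 was left out. Without the Hif-1α array of experiment 3 there was 1, and without its Hif-3α array or the Hif-1α array of experiment 2 there were 2. They included the meiotic protein sycp3 (-1.76 ± 0.28), the maternal RNA decay adaptor btg4 (-0.93 ± 0.14), the germ cell RNA-binding protein dnd1 (-0.65 ± 0.13) and the oocyte linker histone h1m (-0.82 ± 0.19).

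**Figure D4:**
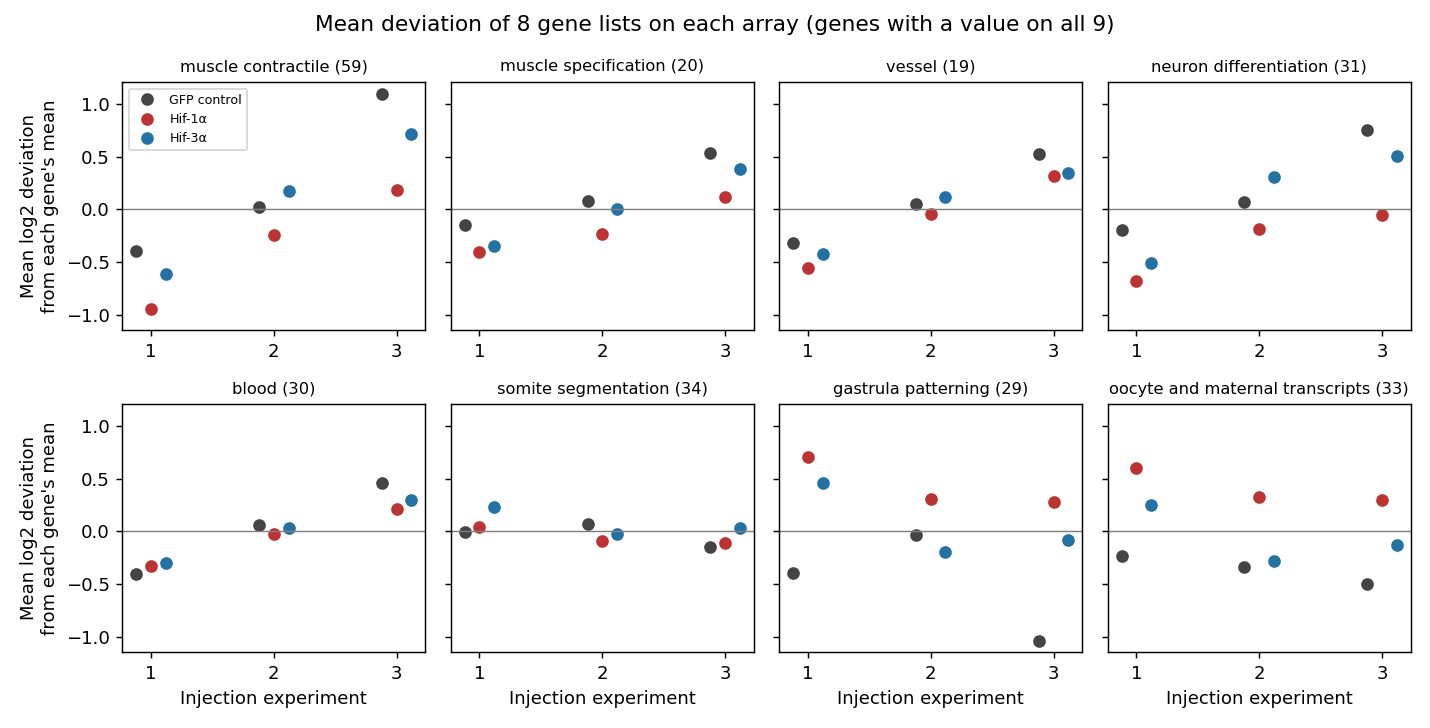
Mean log2 deviation of the genes of 8 lists from their own means over the 9 arrays (vertical axis), by injection experiment and injected mRNA, for genes with a value on all arrays. The contractile list lies at -0.39, -0.94 and -0.61 on the control, Hif-1α and Hif-3α arrays of experiment 1. On those of experiment 3 it lies at 1.1, 0.18 and 0.72. Lists also differ between injected groups, among them the gastrula and oocyte lists. In experiments 1, 2 and 3 the oocyte list lies at -0.23, -0.34 and -0.50 on the control arrays. On the Hif-1α arrays it lies at 0.60, 0.33 and 0.30.

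The other genes with the largest falls belonged to no single list. The tyrosine kinase gene ptk6b was lower by -3.51 ± 0.55, although only 1 array of experiment 3 was well above background. The cytokine receptor il23r (-2.03 ± 0.32), the phosphatase dusp2 (-1.81 ± 0.21) and the aminotransferase agxt2 (-1.74 ± 0.27) were lower. For agxt2 the levels were -0.14, -1.33 and -0.76 in experiment 1, -0.08, 0.24 and 0.08 in experiment 2, and -2.05, -2.82 and -2.58 in experiment 3. Experiments 1 and 2 were alike in being above every array of experiment 3. The pim-related kinases pimr140 (-1.73 ± 0.23) and pimr141 (-1.54 ± 0.27) belong to a family of many close copies, among which the probes may not discriminate.

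The remaining shares are read against 7.13% higher and 3.93% lower among all genes. Of 26 genes of the yolk layer and endoderm 4 were higher (15.4%), among them the apolipoprotein apoea (2.73 ± 0.29, above background on 1 array of experiment 1) and the retinol carrier rbp4 (1.75 ± 0.34), and the lipid transfer gene mttp was lower (-1.04 ± 0.15, 1 of 26 or 3.85%). The epidermis list had 2 of 28 higher (7.14%), the claudins cldn3c (0.91 ± 0.13) and cldni (0.98 ± 0.16), and 1 lower (3.57%), while krt4 gave 0.06 ± 0.12 and did not pass. In the neural plate list 2 of 42 were higher (4.76%), including en1b of the midbrain-hindbrain region (1.55 ± 0.25), and gbx2 was lower (-0.65 ± 0.13, 1 of 42 or 2.38%). The neural crest list had 1 of 15 higher (6.67%), dlx2a (1.00 ± 0.13), and the hatching gland and prechordal plate list had 2 of 15 lower (13.3%), the Wnt antagonists dkk1b (-0.78 ± 0.17) and frzb (-1.61 ± 0.37). Of 20 interferon response genes 3 were higher (15%). Among these 3, mxb was tested only through the filter by experiment and was above background on no array of experiment 1. Of 37 cell cycle genes 1 was higher (2.7%), the cyclin gene ccnd2a (0.75 ± 0.16). Over the fits that left out 1 array, these counts of higher genes ranged from 1 (without the control or Hif-3α array of experiment 3, or the Hif-3α array of experiment 1) to 4 for the yolk list and from 0 upward for the others, and the lower count of the hatching gland list from 0 to 3.

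Of 38 HIF targets, the list tied to the injected factors, 2 were higher (5.26%, against 7.13% of all genes) and 1 lower (2.63%, against 3.93%). The pair medians were 0.49 in the control pair, -0.12 in the Hif-1α pair and 0.09 in the Hif-3α pair. The mean deviation of the list was -1.24, -0.12 and -0.60 on the control arrays of experiments 1, 2 and 3. On the Hif-1α arrays it was 0.84, 0.75 and 0.80, and on the Hif-3α arrays -0.21, -0.18 and -0.04. The control array of experiment 2, outside the comparison, was the highest control and also enters the SE. The mitochondrial subunit ndufa4b was not called (1.67 ± 0.99, adjusted p = 0.321 from limma). Its levels were -5.65, 3.60 and -2.18 in experiment 1 and -2.05, 3.74 and -0.92 in experiment 3, so the pairs differed by 3.61, 0.14 and 1.26. The cytochrome oxidase subunit gene cox6b1 had pair differences of 3.67, 0.18 and 0.45 and was not called either. In the glycolysis list 3 of 23 were higher (13%), among them aldoab (1.60 ± 0.20). Another, eno2, was tested only through the filter by experiment and was above background on no array of experiment 1. Leaving out 1 array gave 0 to 4 higher glycolysis genes and 0 to 2 higher HIF targets. In the heat shock, p53 and circadian lists no gene passed under limma, with 6 of 24, 6 of 26 and 7 of 27 at an unadjusted p under 0.05, against 28.8% of all genes. As shares these are 25%, 23.1% and 25.9%.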

How the data were processed

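Per the labels, RNA of pools of 60 embryos was labelled with Cy3 and hybridised to 1-colour Agilent arrays, read with Feature Extraction 10.7 and normalized by the authors in GeneSpring 11.0. The deposited processed signal is an intensity, background-subtracted per the file headers, and the median signals of spot and local background are intensities without that step. Spot flags, deposited as 0 or 1, are other values, and the deposited matrix is in log2 units.

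Control spots and outlier-flagged spots were left out (437 flagged on Hif-3α replicate 1, 3 to 24 on the others). Probes well above background on all arrays of an injected group or an experiment were kept (32024 probes), and the brightest stood for its gene. Genes were named through RefSeq accessions of assembly GRCz12tu. An additive model of injected mRNA and experiment was fitted to all 9 arrays with limma 3.58.1 in R 4.3.3, with 4 residual degrees of freedom, and was tested on simulated data. Array number limits the precision, with a median SE of 0.148. Same-numbered arrays deviated together (correlations 0.153 to 0.607), the numbers marking shared injection experiments.

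Named genes were the 12 largest called differences each way with a proper symbol, the same sign in all pairs and probes above background throughout 1 of the experiments, up to 4 called members per list by p, a fixed set of markers, and 6 genes by spread between pairs. The members, the rule and the 25 lists were chosen with earlier results of these data known. Alternatives covered arrays, blocks, scaling, background correction, filters and probes. Not every gene that the rule names is reported here.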

Additional observations from a re-analysis of the deposited data

Results flagged for a closer look

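The pairs of six6b, an eye field factor, ran in opposite directions, from -4.59 in the Hif-1α pair to 1.66 in the Hif-3α pair, each by at least 1. The probe was well above background on 2, 3 and 2 arrays of experiments 1, 2 and 3. In the Hif-1α pair the spot signal was 80.5 in experiment 1 and 41.5 in experiment 3, over local backgrounds of 34 and 35, and in the Hif-3α pair it was 52.5 and 67 over 36.5 and 29. With 1 pair per injected group this difference between groups was not tested, and a second probe of the gene gave 1.77 over all arrays.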

How the results depend on the processing

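With the replicate number as the block, no paired analysis was possible because the replicate number gives the injection experiment, which is itself the factor compared. The block in the fit was the injected mRNA, so arrays with the same injected mRNA were paired across experiments.

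Calls for experiment 3 against 1 (2227, of which 1436 higher and 791 lower) became 1362 (952 and 410) with the 6 arrays of experiments 1 and 3, 579 (421 and 158) with no injected-mRNA block, 36 (22 and 14) with scan day as a further block, 1240 (848 and 392) with no filter and 778 (557 and 221) without the control group. Under limma 2 passed without the Hif-1α group (0 higher, 2 lower; 4316 at unadjusted p under 0.05) and 0 without the Hif-3α group (3218), each with 2 residual degrees of freedom. Without 1 array the calls ranged from 327 to 2596, the higher from 252 to 1583 and the lower from 73 to 1013.

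Normexp with the 75th percentile gave 0 calls (443 at unadjusted p under 0.05 for 3 against 1, 413 for 2 against 1, 337 for 3 against 2). On control replicate 3 and Hif-3α replicate 1, 16 and 18 spots had a local background more than 100 above their signal, and the median normexp signals of these arrays were 860 and 722, against 126 to 159 on the other 7 and 170 and 144 when those spots were left out. Left out, as chosen after seeing the data, the calls were 1880 for 3 against 1, 879 for 2 against 1 and 684 for 3 against 2 with the percentile, and 2542, 734 and 574 with quantile normalization.

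Experiment 2 against 1 (281) gave 8 with no injected-mRNA block, 0 with scan day (1959 at unadjusted p under 0.05), 704 by normexp with quantiles, 3595 with no filter, 545 with probes above background on all 9 arrays, 813 with trend and robust, 518 without the control group, and 0 without the Hif-1α (2486) or Hif-3α (2044) group. Without the filter, 2561 of its 2955 lower calls were probes above background on no array. Experiment 3 against 2 (376) gave 95 with no injected-mRNA block, 24 with scan day and also within scan day 3, 46 with no filter, 687 with trend and robust, and 0 without the control (3708), Hif-1α (2720) or Hif-3α (2126) group. Leaving out 1 array gave 0 to 638 and 0 to 308 calls.

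The contractile median of 1.32 was 1.09 with scan day and within the Hif-1α pair, 0.58 and 0.83 by normexp with percentile and quantiles, 0.85 and 0.92 without the spots of high background, and 1.16 to 1.55 without 1 array. The HIF target median of 0.23 reversed to -0.12 with scan day and in the Hif-1α pair, and ranged from -0.077 (without control replicate 1) to 0.33 without 1 array. Of 91 named genes called, 30 kept their call without any 1 array. No slide-block fit was run to a test, since it leaves no residual degrees of freedom. The cause of the other changes was not tested.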

Other observations

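A few genes differed on 1 array alone, and 3 of them did so on control replicate 3. The level of amh was 4.49 there and at or below -4.50 on the other 8 arrays, that of rcvrn3 was 4.91 against at most -4.34, and that of tatdn3 was 5.33 against at most -1.53. The local background of those spots was 7045 for amh, 1477 for rcvrn3 and 7005 for tatdn3, against 27 to 43 on the other arrays, and the other probes of rcvrn3 and tatdn3 gave differences of 0.44 and of -0.29 to 0.04. None of the 3 carried an outlier flag. The gene laptm4b was at -5.14 on Hif-3α replicate 1 and at 0.29 to 0.80 elsewhere, with a local background of 29 at that spot.

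A gene with a clone name, si:ch211-132b12.6, was also lower, and is named here after its values were seen. Its levels on the control, Hif-1α and Hif-3α arrays were -2.26, -2.19 and -1.95 in experiment 1, -2.86, -4.20 and -3.10 in experiment 2, and -8.01, -7.92 and -8.22 in experiment 3, where no array was well above background, so that it was at least 15.07-fold lower there.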
